A study of Mus musculus with 6 samples.

Results

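Barrier ceramide and lipoxygenase genes are the 33 genes, of 54532 in the table, that were listed by symbol as making, modifying or breaking down the ceramides of the epidermal barrier. All 33 were found in the deposited table. They were followed in back epidermis of mice that carried floxed Spry1 (Spry1flox/flox), the controls, and of mice that carried floxed Spry1 with K14-Cre-ERT2, the knockouts, with 3 RNA-seq samples in each group. Tamoxifen was given to both groups by gavage, 0.1 mg for each g of weight, on 4 occasions a week during 4 weeks. K14-Cre-ERT2 is a Cre recombinase that tamoxifen activates, driven by the promoter of keratin 14, a gene of the basal layer of the epidermis. Spry1 codes for Sprouty1, which restrains growth factor receptor signalling. No group carried Cre without floxed Spry1, so Cre itself and the loss of Spry1 cannot be told apart, and the labels give no age, sex or strain. Nor do they state whether each sample is an animal of its own, so the p-values reflect just the spread among these samples, which is possibly technical.

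The outer layer of the skin holds water because the spaces between its dead cells are filled with stacked lipid sheets of ceramides, cholesterol and fatty acids. Keratinocytes make these ceramides from serine and palmitate, join them to unusually long fatty acids, hydroxylate the far end of the chain, and pack them as glucosylceramides into lamellar bodies. Lipoxygenases then oxidise the linoleate on the acylceramides, which is needed to fix them to the protein envelope of the cell. Loss of many of these enzymes causes ichthyosis, in which the skin scales and loses water.

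Values are FPKM, in which the reads of a gene are divided by its length and by 1 total for each sample, so levels can be compared between genes. Spry1 itself measured 25.8, 28.2 and 34.4 FPKM across the controls against 1.06, 1.49 and 1.28 across the knockouts. Reads recovered from the FPKM values summed to between 18383332 and 21024720 per sample. The total by which the values had been divided differed from this sum. It was 99.1%, 98.8% and 102.9% of the sum in Control replicates 1, 2 and 3. In Spry1_KO replicates 1, 2 and 3 it was 95.6%, 90.7% and 88.1%. The reason for this difference was not tested. Behind single values stood between 18 reads, for Degs2 in Control replicate 3, and 22719 reads, for Alox12e in Control replicate 2. Control replicate 3 was the lowest control for 26 of the 33 genes, and Spry1_KO replicate 1 the lowest knockout for 24. Cers3 and Alox12b, which mark keratinocytes that make the barrier, were present in every sample, at 17.3 to 32.0 FPKM for Cers3 and 11.4 to 25.1 FPKM for Alox12b.

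Some genes of the set were higher and others lower in the knockouts, and the share called was near that over all genes. Of the 33 genes, all of which passed the filter of a mean of 1 FPKM, 12 were higher and 9 lower in the knockouts (limma on log2(FPKM + 1), Benjamini-Hochberg adjusted p under 0.05). These 21 genes, 63.6% of the set, stand against a background of 54.0% of all 12629 genes tested, with 29.6% higher and 24.4% lower. The median log2 fold change of the 33 genes was 0.26, against 0.03 over all genes. A change of at least 2-fold was seen for 4 genes that rose and 6 that fell, 30.3% of the set, where the background was 16.1% (8.11% higher, 8% lower). In 25 of the 33 genes the 3 knockout samples did not overlap the 3 controls, which was so for 64.2% of all genes. The split depended on scaling. When each column was scaled to TPM (the FPKM column divided by its sum), 7 genes of the set were higher and 14 lower. Beside these stood 2248 and 5200 of the 14966 genes then tested. Scaled to recovered reads, the counts were 10 and 11 in the set and 2876 and 3736 over the 12539 genes then tested.

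**Figure D1:**
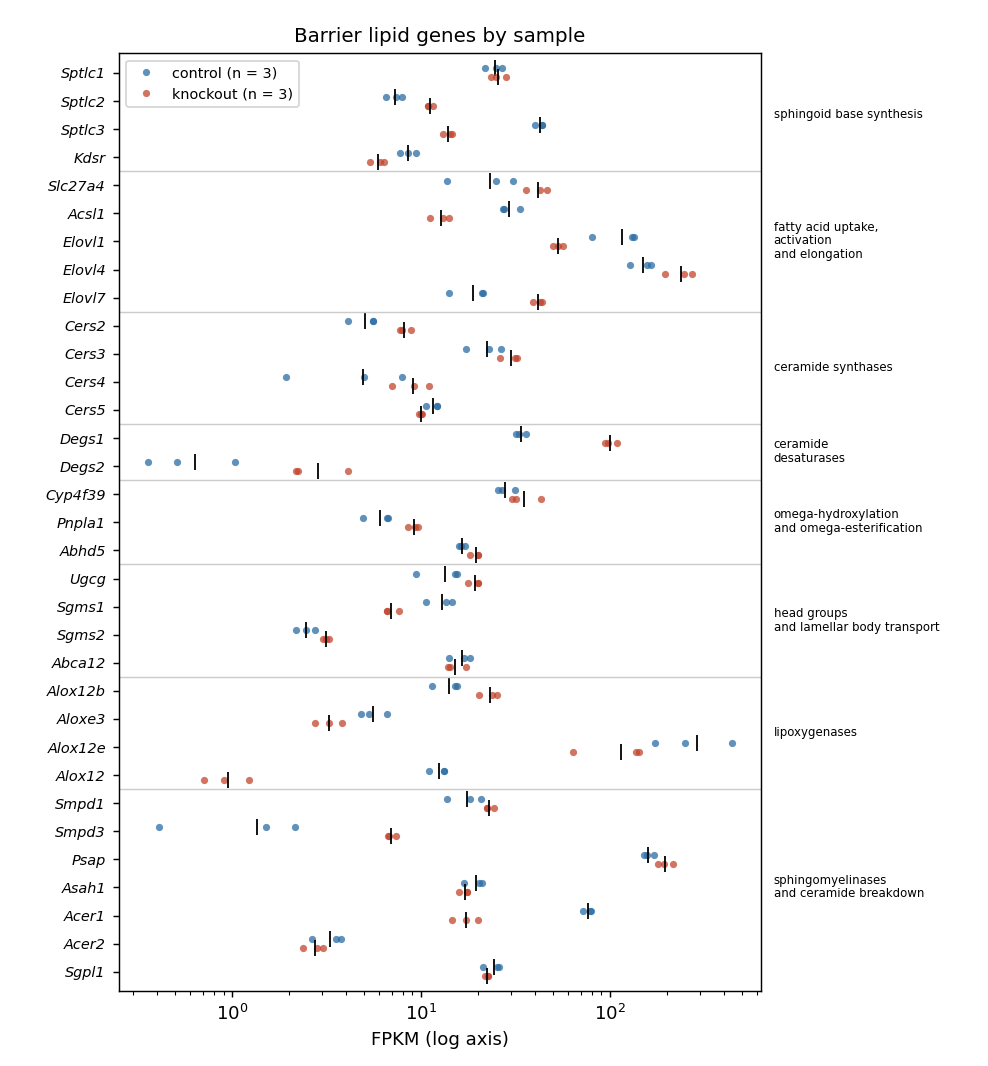
FPKM of each of the 33 genes on a log axis, ordered by step of the pathway, with 1 dot per sample (blue, 3 controls; red, 3 knockouts) and a black bar at each group mean. Alox12, Acer1 and Sptlc3 lie far lower in the knockouts and Degs1, Smpd3 and Elovl7 far higher, while Sptlc1, Abca12, Acer2, Asah1 and Sgpl1 overlap.

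By level, the most abundant genes of the set in the controls were Alox12e at 287 FPKM, Psap at 160, Elovl4 at 150, Elovl1 at 115 and Acer1 at 76.5. In the knockouts Elovl4 at 238 FPKM came highest, followed by Psap at 195, Alox12e at 114, Degs1 at 100.2 and Elovl1 at 53.1. Acer1 thus left the leading 5 and Degs1 entered it. The lowest gene in the controls was Degs2 at 0.635 FPKM, and in the knockouts it was Alox12 at 0.947 FPKM.

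The largest falls of the set were those of Alox12, Acer1 and Sptlc3. Of the 4 largest rises (Smpd3, Degs1, Degs2 and Elovl7), only Elovl7 is shown. No upstream window was available for Smpd3, and those of Degs1 and Degs2 hold annotated exon bases. For Alox12, Acer1, Sptlc3 and Elovl7 the 250 bases before the transcript start are shown, from RefSeq (GRCm38.p6), 5′ to 3′ on the strand of the gene. Elements just before this start would lie there, while those at or after it, or at other starts, lie outside. Capitals mark GGGCGG, the GC box bound by Sp and Klf factors, or its complement CCGCCC. The windows are chr11:70255371-70255620 (minus strand) for Alox12, chr17:56982127-56982376 (minus strand) for Acer1, chr2:139493663-139493912 (plus strand) for Sptlc3 and chr13:108214154-108214403 (plus strand) for Elovl7.
Alox12: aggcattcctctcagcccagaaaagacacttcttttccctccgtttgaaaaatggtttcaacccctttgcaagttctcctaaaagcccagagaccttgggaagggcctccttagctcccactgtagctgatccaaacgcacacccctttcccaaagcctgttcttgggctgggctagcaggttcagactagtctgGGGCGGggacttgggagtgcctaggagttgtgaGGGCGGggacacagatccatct
Acer1: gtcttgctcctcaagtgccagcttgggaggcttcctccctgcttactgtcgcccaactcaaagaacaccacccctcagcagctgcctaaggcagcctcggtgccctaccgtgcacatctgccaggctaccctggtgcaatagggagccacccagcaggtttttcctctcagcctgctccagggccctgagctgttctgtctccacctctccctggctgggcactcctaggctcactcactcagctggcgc
Sptlc3: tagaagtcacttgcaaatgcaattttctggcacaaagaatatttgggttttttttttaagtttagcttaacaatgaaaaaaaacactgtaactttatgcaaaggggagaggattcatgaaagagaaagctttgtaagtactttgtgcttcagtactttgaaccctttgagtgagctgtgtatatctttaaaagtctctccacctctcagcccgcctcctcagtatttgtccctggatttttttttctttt
Elovl7: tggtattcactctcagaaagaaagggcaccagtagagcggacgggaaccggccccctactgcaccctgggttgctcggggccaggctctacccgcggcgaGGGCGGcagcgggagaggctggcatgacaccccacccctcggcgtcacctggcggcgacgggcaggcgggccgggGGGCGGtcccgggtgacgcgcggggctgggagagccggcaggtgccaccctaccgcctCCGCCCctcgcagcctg
The GC box, which 32.7% of all 32851 such windows hold, is present in those of Alox12 and Elovl7, which moved in opposite directions, and its letters are not in the windows of Acer1 and Sptlc3, which both fell. By base composition the window of Sptlc3 is the poorest of the 4 in G and C at 35.6% and that of Elovl7 the richest at 73.6%, where the median over all promoters is 52.4%.

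Ceramide synthesis starts with serine palmitoyltransferase, a complex of Sptlc1 with either Sptlc2 or Sptlc3, and here the 2 alternative subunits moved in opposite directions. Sptlc3 stood at 43.8, 40.1 and 43.4 FPKM in control tissue and at 13.0, 14.2 and 14.7 in knockout tissue. The controls lay close together and far above every knockout sample. The log2 fold change of Sptlc3 was -1.54 ± 0.08 (standard error, adjusted p = 3.03e-05 in limma), or 3.04-fold lower by the group means. Sptlc2 had control values of 7.96, 7.37 and 6.53 FPKM and knockout values of 10.8, 11.6 and 10.9 FPKM. It rose by 0.55 ± 0.09 on the log2 scale (standard error, adjusted p = 0.00236 in limma), without overlap between the groups. Sptlc1, the subunit common to both complexes, averaged 24.5 and 25.5 FPKM and stayed short of the threshold (adjusted p = 0.712 in limma). Its log2 fold change of 0.05 was -0.02 without Control replicate 3 and -0.02 without Spry1_KO replicate 2. Because a share within a sample does not change with how the sample is scaled, the summed FPKM of Sptlc2 and Sptlc3 was also split between them. Sptlc2 held 14.7% ± 1.38 of that sum in the controls and 44.4% ± 1.47 in the knockouts (SD over n = 3 a group). The sum itself went from 49.7 to 25.0 FPKM. Kdsr, which reduces the product of serine palmitoyltransferase, fell from 8.57 to 5.93 FPKM (log2 fold change -0.46 ± 0.10, SE, adjusted p = 0.00811 in limma).

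**Figure D2:**
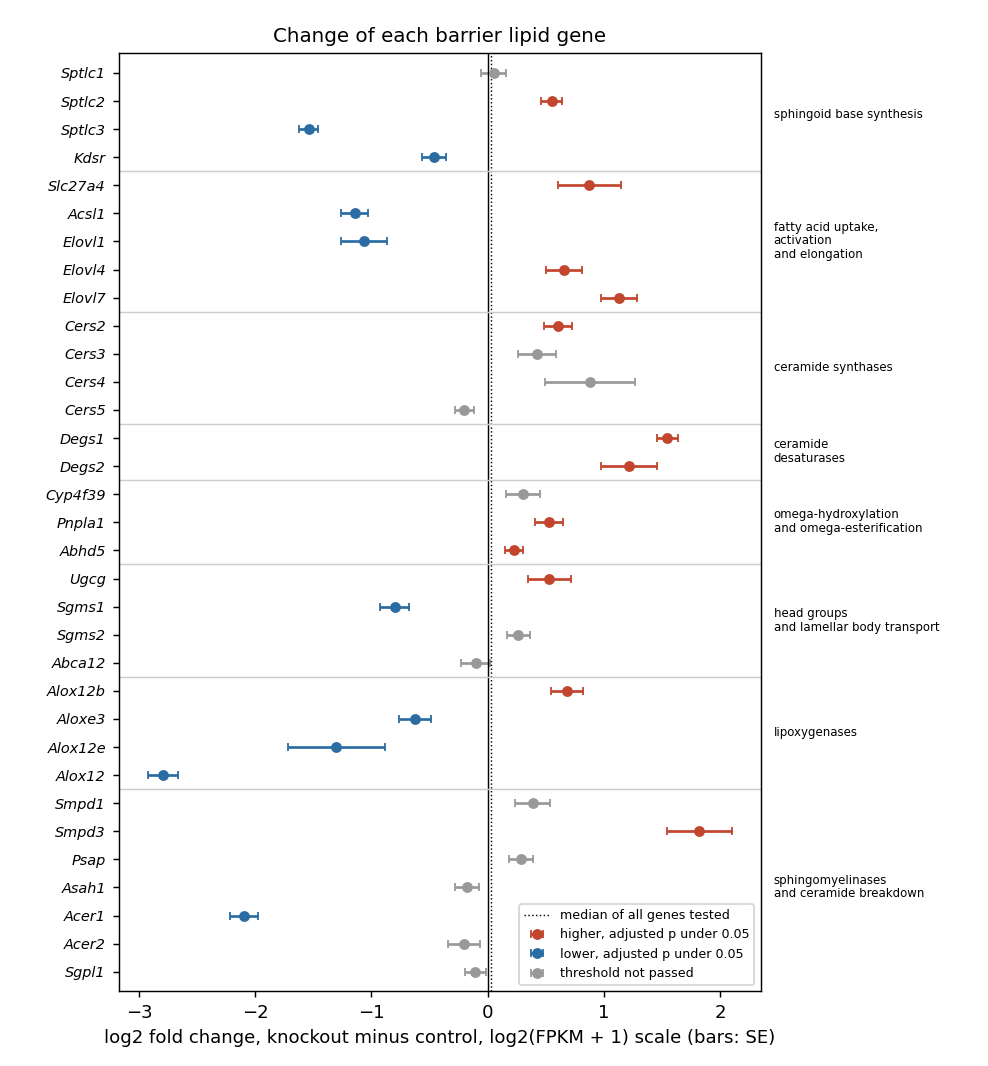
Log2 fold change of each gene, knockout minus control, on the log2(FPKM + 1) scale, with bars for the standard error and 3 samples per group; red and blue mark genes past an adjusted p of 0.05, and the dotted line is the median of all genes. Within the serine palmitoyltransferase, elongase and lipoxygenase groups, red and blue stand side by side, while both desaturases lie on the right.

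Of the 5 genes that take up, activate and lengthen fatty acids, Slc27a4, Elovl4 and Elovl7 were higher and Acsl1 and Elovl1 lower, where 54.0% of all genes passed the test. Slc27a4 encodes a fatty acid transport protein with acyl-CoA synthetase activity, and Acsl1 a long-chain acyl-CoA synthetase. Acsl1 fell from 29.3 ± 3.37 to 12.7 ± 1.46 FPKM (SD over n = 3 a group), a log2 fold change of -1.15 ± 0.12 (standard error, adjusted p = 0.000339 in limma). Slc27a4 averaged 23.2 ± 8.64 FPKM in the controls and 41.4 ± 5.25 in the knockouts (SD over n = 3 a group), a log2 fold change of 0.88 with an adjusted p of 0.0320 in limma. The wide spread came from Control replicate 3, which read 13.8 FPKM against 25.0 and 30.8 in the other controls. The log2 fold change of Slc27a4 was 0.56 without that sample. The call was lost under TPM scaling (0.62), with no filter on low values (0.88) and with the replicate number as a block. It was also lost without Control replicate 1 (0.96) and without Spry1_KO replicate 1 (0.97), 2 (0.86) or 3 (0.80). The limma adjusted p lay between 0.0145 and 0.0979 over all alternatives.

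The elongases build the chains that set a barrier ceramide apart, Elovl1 the very long saturated ones and Elovl4 the ultra-long ones that are later omega-hydroxylated. Elovl1 measured 134, 130.3 and 80.4 FPKM across the controls against 49.9, 52.8 and 56.7 across the knockouts. It fell by 1.06 on the log2 scale (SE 0.20, adjusted p = 0.00407 in limma), and no knockout sample reached the lowest control. Elovl4 stood at 157, 165 and 128 FPKM in control tissue and at 196, 248 and 270.5 in knockout tissue. It rose by 0.66 ± 0.16 on the log2 scale (standard error, adjusted p = 0.0109 in limma), a call lost only when Control replicate 3 and Spry1_KO replicate 2 were both left out (log2 fold change 0.52, limma adjusted p between 0.00762 and 0.0586 over the alternatives). Elovl7, a further long-chain elongase, went from 18.8 ± 4.03 to 41.6 ± 2.25 FPKM (SD over n = 3 a group), 2.22-fold higher by the group means (adjusted p = 0.00120 in limma). The FPKM of Elovl4 was 1.17, 1.27 and 1.59 times that of Elovl1 in the controls and 3.94, 4.69 and 4.77 times in the knockouts. Elovl1 held 40.1% ± 3.52 of the summed FPKM of these elongases in the controls and 16.1% ± 1.23 in the knockouts (SD over n = 3 a group). The sum of the 3 genes overlapped between the groups, at 222 to 316 FPKM in the controls and 285 to 371 FPKM in the knockouts. Elovl1 shares 53 exon bases, 1.94% of its exon length, with Cdc20 on the opposite strand, whose level went from 8.44 to 50.6 FPKM, and whether the counting used strand is not given in the sources used here.

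**Figure D3:**
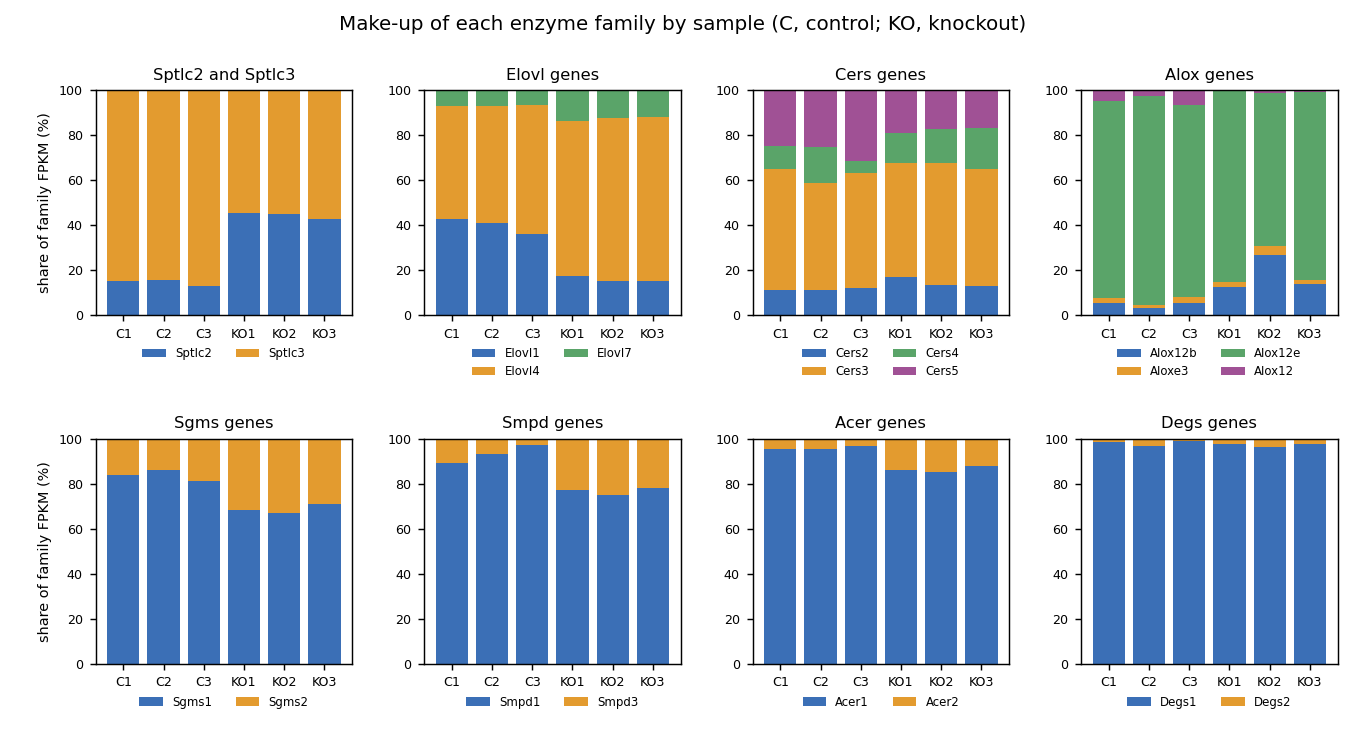
Share of each gene in the summed FPKM of the set genes of its enzyme family, in percent, for every sample (C1 to C3, controls, and KO1 to KO3, knockouts). Relatives outside the set, such as Cers6, Acer3 and Elovl6, are left out. Sptlc2, Elovl7, Sgms2, Smpd3 and Acer2 take a larger share in all 3 knockouts than in any control, while the Cers3 share and the Degs shares overlap.

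Of the 4 ceramide synthases, which join the fatty acid to the sphingoid base, only Cers2 passed the test. Cers3, which is needed for ceramides with ultra-long chains, had control values of 26.5, 23.0 and 17.3 FPKM and knockout values of 26.2, 32.0 and 31.5 FPKM. The groups overlapped, and Cers3 did not pass (log2 fold change 0.43 ± 0.16, SE, adjusted p = 0.0617 in limma), although it did without Control replicate 1 (0.56), while the log2 fold change was 0.26 without Control replicate 3 (limma adjusted p between 0.0324 and 0.322 over the alternatives). Cers2, which prefers very long chains, rose from 5.06 ± 0.827 to 8.16 ± 0.586 FPKM (SD over n = 3 a group; adjusted p = 0.00558 in limma), which did not hold under TPM scaling (log2 fold change 0.40). Cers4 measured 5.001, 7.93 and 1.92 FPKM across the controls against 7.02, 9.12 and 10.998 across the knockouts. It did not pass (adjusted p = 0.0960 in limma), and its log2 fold change of 0.88 was 0.44 without Control replicate 3 and 1.24, then past the threshold, without Control replicate 2. Cers5, which makes ceramides with palmitate, averaged 11.6 and 9.95 FPKM and stayed short of the threshold (adjusted p = 0.0761 in limma). It was called lower in 6 of 17 alternatives, among them TPM scaling (log2 fold change -0.48), recovered-read scaling (-0.32) and without Control replicate 3 (-0.26). Cers3 held 50.7% ± 3.25 of the summed FPKM of these 4 synthases in the controls and 52.3% ± 1.82 in the knockouts (SD over n = 3 a group). The share of Cers5 went from 26.9% to 17.5% and that of Cers2 from 11.6% to 14.4%, both without overlap.

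Both ceramide desaturases were called higher, where 29.6% of all genes were. Degs2 averaged 0.635 FPKM in the controls and passed the filter only through the knockouts, so its direction was set by the filter. Degs1, which turns dihydroceramide into ceramide, stood at 35.9, 33.01 and 31.9 FPKM in control tissue and at 97.8, 108.7 and 94.1 in knockout tissue. Every knockout sample was far above every control. The log2 fold change was 1.55 ± 0.09 (standard error, adjusted p = 4.46e-05 in limma), or 2.98-fold by the group means. Degs2, which hydroxylates the sphingoid base to give phytoceramides, had control values of 0.510, 1.04 and 0.358 FPKM and knockout values of 2.23, 4.11 and 2.16 FPKM, from 18 to 49 and from 92 to 184 reads. It rose by 1.22 on the log2 scale (SE 0.24, adjusted p = 0.00524 in limma). Of the exon bases of Degs2, 10.8% are shared with Evl on the opposite strand, which went from 2.33 to 8.15 FPKM, so the part of these reads that comes from Degs2 is uncertain. Degs1 made up 98.1% of the summed desaturase FPKM in the controls and 97.3% in the knockouts.

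The omega end of the ultra-long chain is hydroxylated by Cyp4f39, the mouse counterpart of a human gene mutated in ichthyosis, and is then esterified with linoleate by Pnpla1 with the help of Abhd5. Pnpla1 rose from 6.07 ± 0.978 to 9.15 ± 0.602 FPKM (SD over n = 3 a group), a log2 fold change of 0.53 (SE 0.12, adjusted p = 0.00945 in limma), lost under TPM scaling (0.31). Cyp4f39 averaged 28.0 and 35.1 FPKM with overlapping groups and stayed short of the threshold (adjusted p = 0.127 in limma), although it was called higher with array weights. Abhd5 read 15.9 to 17.1 FPKM in the controls and 18.2 to 20.1 FPKM in the knockouts. Its small rise (log2 fold change 0.23, adjusted p = 0.0428 in limma) stood at the threshold and was -0.04 under TPM scaling, where the median of all genes was -0.25. The call for Abhd5 was also lost when scaled to recovered reads (0.10), in limma-voom (0.19) and with the replicate number as a block. It was lost without Control replicate 1 (0.22), 2 (0.26) or 3 (0.20) and without Spry1_KO replicate 2 (0.21) or 3 (0.20). The same held without both Control replicate 3 and Spry1_KO replicate 2. The limma adjusted p lay between 0.0360 and 0.744 over the alternatives.

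Finished ceramides receive a head group and leave by lamellar bodies. Ugcg, which makes glucosylceramide, averaged 13.3 ± 3.42 FPKM in the controls and 19.2 ± 1.27 in the knockouts (SD over n = 3 a group; log2 fold change 0.53, adjusted p = 0.0449 in limma). That call was lost under TPM scaling (0.28), when scaled to recovered reads (0.41), with no filter on low values (0.53) and without Spry1_KO replicate 1 (0.51), 2 (0.50) or 3 (0.58), and the log2 fold change was 0.31 without Control replicate 3, with limma adjusted p between 0.0175 and 0.217 over the alternatives. Sgms1, the sphingomyelin synthase of the Golgi, measured 14.6, 13.5 and 10.7 FPKM across the controls against 6.59, 6.61 and 7.63 across the knockouts. It fell by 0.80 on the log2 scale (SE 0.13, adjusted p = 0.00198 in limma) with the groups apart. Sgms2, found at the plasma membrane, averaged 2.46 and 3.15 FPKM and stayed short of the threshold (adjusted p = 0.0613 in limma). The share of Sgms2 in the summed FPKM of both synthases went from 16.2% ± 2.36 to 31.2% ± 1.99 (SD over n = 3 a group). Abca12, which loads glucosylceramide into lamellar bodies, averaged 16.4 and 15.2 FPKM, with an adjusted p of 0.521 in limma. It was called lower under TPM scaling and without both Control replicate 3 and Spry1_KO replicate 2.

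Of the 4 lipoxygenase genes, Alox12b was higher and Aloxe3, Alox12 and Alox12e lower, where 54.0% of all genes passed the test, and the call for Alox12e was lost in 6 alternatives. The pair that acts in sequence on barrier acylceramides, Alox12b and Aloxe3, changed in opposite directions. These genes lie on chromosome 11, Aloxe3 from 69125896 to 69149115 and Alox12b from 69156989 to 69169792 on the plus strand, and Alox12 from 70241457 to 70255353 and Alox12e from 70315610 to 70322628 on the minus strand (GRCm38). Alox12b, which carries out the opening oxidation, stood at 15.5, 15.1 and 11.4 FPKM in control tissue and at 20.2, 25.1 and 23.8 in knockout tissue. It rose by 0.69 ± 0.14 on the log2 scale (standard error, adjusted p = 0.00570 in limma). Aloxe3, which converts the hydroperoxide that Alox12b makes, had control values of 6.60, 5.33 and 4.83 FPKM and knockout values of 3.24, 3.80 and 2.75 FPKM. It fell by 0.63 on the log2 scale (SE 0.14, adjusted p = 0.00838 in limma). The FPKM of Alox12b was 2.52 ± 0.2796 times that of Aloxe3 in the controls and 7.16 ± 1.31 times in the knockouts (SD over n = 3 a group), without overlap between the groups.

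Alox12, the platelet-type enzyme that is also made in epidermis, had the largest fall of the set. It averaged 0.947 FPKM in the knockouts and passed the filter only through the controls. It measured 13.2, 11.02 and 13.3 FPKM across the controls against 0.707, 1.23 and 0.908 across the knockouts, from 823 to 1057 and from 58 to 87 reads. It was 13.2-fold lower by the group means, with a log2 fold change of -2.80 ± 0.13 on the log2(FPKM + 1) scale (standard error, adjusted p = 1.82e-05 in limma) and -3.81 in limma-voom on recovered reads. Of 5 platelet marker genes 2 passed the filter, Pf4 and Itga2b, and both were called higher, where 29.6% of all genes were. Both averaged under 1 FPKM in the controls and passed only through the knockouts, so this direction was set by the filter. The summed level of the 5 genes was 1.37 to 2.25 FPKM in the controls and 4.48 to 7.52 FPKM in the knockouts. Ppbp was listed at 0 in all controls. Of the platelet genes below the filter, Gp9 was listed at 0 in all knockouts and averaged 0.0595 FPKM in the controls, and Gp1ba averaged 0.592 FPKM in the controls and 0.315 FPKM in the knockouts. Alox12e, the epidermis-type enzyme, stood at 249, 440 and 173 FPKM in control tissue and at 136, 63.8 and 142 in knockout tissue. The groups did not overlap, but the spread within each was wide. Its log2 fold change was -1.30 ± 0.42 (standard error, adjusted p = 0.0355 in limma). The call was lost with no filter on low values (-1.30) and with the replicate number as a block. It was also lost without Control replicate 1 (-1.35) or 2 (-0.94) and without Spry1_KO replicate 1 (-1.47) or 2 (-0.93). The limma adjusted p lay between 0.00933 and 0.0909 over the alternatives. The summed FPKM of the 4 lipoxygenases was 202 to 471 in control and 93.9 to 169 in knockout tissue, most of it Alox12e in every sample. In bulk tissue, fewer cells of a type and less RNA per cell cannot be told apart.

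Among the genes that break down sphingolipids, one sphingomyelinase and one ceramidase stood out. Smpd3, a neutral sphingomyelinase, had control values of 2.15, 1.52 and 0.412 FPKM and knockout values of 6.66, 7.34 and 6.76 FPKM. It was 5.09-fold higher by the group means, with a log2 fold change of 1.82 ± 0.28 (standard error, adjusted p = 0.00171 in limma), the largest rise of the set. Smpd1, the acid sphingomyelinase of the lysosome, averaged 17.5 and 22.9 FPKM and stayed short of the threshold (adjusted p = 0.0614 in limma), although it passed without Control replicate 2 (log2 fold change 0.51, against 0.23 without Control replicate 3). Smpd3 held 6.77% ± 3.84 of the FPKM of both in the controls and 23.2% ± 1.49 in the knockouts (SD over n = 3 a group).

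Acer1, an alkaline ceramidase of differentiating keratinocytes, measured 79.6, 72.1 and 77.9 FPKM across the controls against 14.5, 17.2 and 20.0 across the knockouts. The controls were tight and the highest knockout lay far below them. The log2 fold change was -2.10 ± 0.12 (standard error, adjusted p = 4.29e-05 in limma), or 4.43-fold lower by the group means. Acer2, the Golgi ceramidase, averaged 3.31 and 2.73 FPKM (adjusted p = 0.247 in limma), Asah1, the lysosomal acid ceramidase, 19.4 and 17.0 FPKM (adjusted p = 0.185 in limma), and Sgpl1, the lyase that ends the pathway, 24.2 and 22.3 FPKM (adjusted p = 0.369 in limma). None of these passed, but each was called lower without Control replicate 3, with log2 fold changes of -0.32, -0.27 and -0.19. Each was also called lower under TPM scaling. Psap, the precursor of the saposins that present sphingolipids to lysosomal enzymes, averaged 160 and 195 FPKM and stood just outside the threshold (adjusted p = 0.0549 in limma). It was called higher in 4 of 17 alternatives, among them without Control replicate 3 (log2 fold change 0.34). Macrophage markers, whose cells are rich in lysosomes, summed to 37.0 to 54.9 FPKM in the controls and 85.6 to 157 FPKM in the knockouts. Of the 8 markers 5 were higher and 2 lower, where 29.6% and 24.4% of all genes were. Mrc1 and C1qc, both higher, averaged 0.207 and 0.999 FPKM in the controls and passed the filter only through the knockouts. The part of macrophages in the values of Psap, Smpd1 and Asah1 was not tested. The FPKM of Degs1, which completes ceramide, was 0.439 ± 0.0260 times that of Acer1 in the controls and 5.91 ± 1.07 times in the knockouts (SD over n = 3 a group).

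Control replicate 3 lay far below the mean of the other controls for several genes. Relative to the mean of the other 2 controls it read 22.5% for Smpd3, 29.6% for Cers4, 46.2% for Degs2, 49.4% for Slc27a4 and 50.1% for Alox12e. It read 92.6% for Degs1, 103.5% for Sptlc3 and 102.6% for Acer1. For Degs2 and Alox12e that mean was raised by Control replicate 2, at 1.04 and 440 FPKM against 0.510 and 249 in Control replicate 1. The 12 sebocyte markers, genes of the lipid-making cells of the sebaceous gland, were all lowest among the controls in Control replicate 3. Their sum there was 41.3% of that in the other controls. Their sum was 251 to 706 FPKM in the controls and 712 to 774 FPKM in the knockouts. Of 11 tested, 3 were higher, where 29.6% of all genes were, and none was called lower. The sum was carried by Krt79 and Scd1, at 429 and 178 FPKM in the knockouts, and neither was called. Mc5r went the other way, from 2.07 to 0.498 FPKM (adjusted p = 0.0503 in limma), as did Scd3, from 5.92 to 4.12 FPKM. Granular keratinocyte markers summed to 398 FPKM in Control replicate 3, to 1206 and 1363 FPKM in the other controls and to 817 to 938 FPKM in the knockouts. This sum was carried by Lor, at 238 FPKM in Control replicate 3, which was not called. Relative to the other controls, Control replicate 3 read higher for Casp14 (119.9%) and Tgm3 (191.7%) and lower for the rest. Between the groups 4 of 7 were higher and 2 lower: Flg rose from 1.78 to 29.0 FPKM, while Flg2 fell from 29.4 to 1.66 FPKM. The part of these cells in the values of Smpd3, Cers4, Degs2 and Slc27a4 was not tested. Adipocyte markers were near 0 in every sample, with a summed level of 0.693 to 1.82 FPKM. Suprabasal markers summed to 12000 to 12761 FPKM in the controls and 7918 to 10708 FPKM in the knockouts, but 2 of the 6, Krt1 and Dsc1, were higher and 4 lower. Basal markers summed to 9928 to 10924 and 17326 to 21575 FPKM, a sum carried by Krt5 and Krt14, which were higher, while Krt15, Col17a1 and Itga6 were lower and Itgb4 was not called. Skeletal muscle markers summed to 17.8 to 66.4 FPKM in the controls and 3.89 to 5.84 FPKM in the knockouts. Fibroblast markers summed to 7.59 to 16.4 FPKM in the controls and 1.995 to 6.81 FPKM in the knockouts. Of the genes tested, 6 of 6 muscle and 3 of 5 fibroblast genes were lower, where 24.4% of all genes were. Apart from Mylpf, these genes averaged under 1 FPKM in the knockouts and passed the filter only through the controls. Their direction was thus set by the filter.

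**Figure D4:**
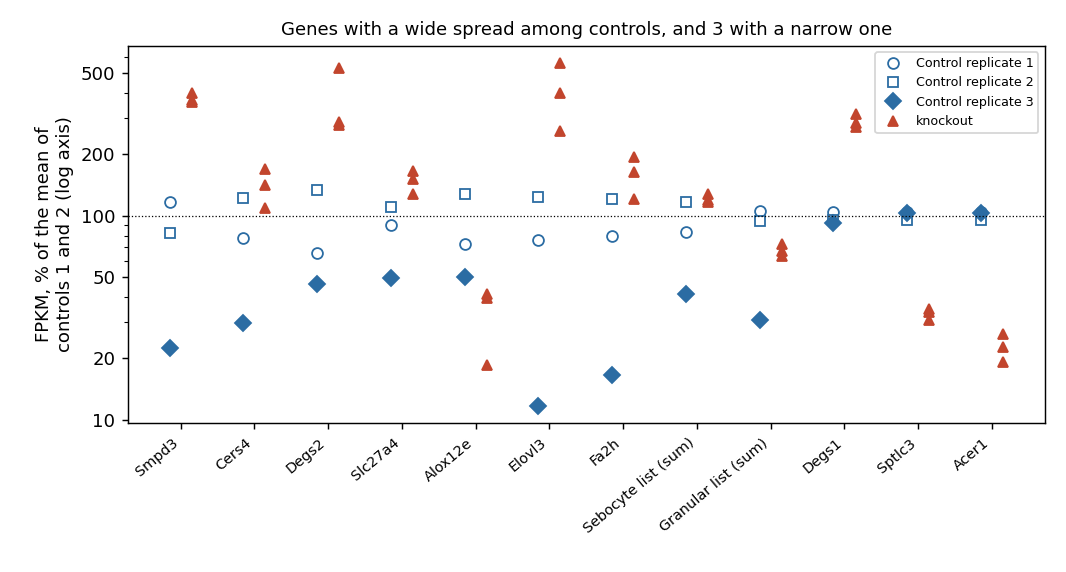
Level of 7 genes and 2 summed marker lists with a wide spread among the controls, and of 3 genes with a narrow one, as a percent of the mean of Control replicates 1 and 2 on a log axis (blue, each control; red triangles, the 3 knockouts). Control replicate 3 lies at 22.5% for Smpd3 and 29.6% for Cers4, and at 92.6%, 103.5% and 102.6% for Degs1, Sptlc3 and Acer1.

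Other genes of the same pathway were read from a list of 49 that holds none of the genes above. Of these 43 passed the filter, 8 were higher and 15 lower, or 53.5% called, close to the background of 54.0%, with a median log2 fold change of -0.11. Scaled to recovered reads the counts were 5 and 16, and only 5, 5 and 4 were higher without Control replicate 1, Spry1_KO replicate 2 and Spry1_KO replicate 3. Acer3, the further alkaline ceramidase, fell with Acer1, from 8.77 ± 1.14 to 1.67 ± 0.0525 FPKM (SD over n = 3 a group; log2 fold change -1.86, adjusted p = 3.99e-05 in limma). The sphingosine kinases Sphk1 and Sphk2 fell by 1.07 and 0.85 on the log2 scale and the ceramide kinase Cerk by 0.79 (adjusted p = 0.000487, 0.000379 and 0.000680 in limma). Cers6, a synthase that like Cers5 makes ceramides with palmitate, fell from 8.41 to 2.66 FPKM (adjusted p = 0.000182 in limma). With Cers6 counted, Cers3 held 42.3% ± 3.87 of the synthase FPKM in the controls and 50.02% ± 2.02 in the knockouts (SD over n = 3 a group), without overlap. Cers1 lay below the filter, at 0.0112 and 0.0651 FPKM.

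Among the further elongases, Elovl3, known from sebaceous glands and hair follicles, stood at 10.8, 17.5 and 1.65 FPKM in control tissue and at 37.0, 56.5 and 79.5 in knockout tissue. It rose by 2.75 on the log2 scale (SE 0.69, adjusted p = 0.0141 in limma), a call lost without Spry1_KO replicate 3 (2.49; limma adjusted p between 0.00477 and 0.0533 over the alternatives). Elovl5 and Elovl6 had log2 fold changes of 0.04 and 0.35 and stayed short of the threshold (adjusted p = 0.905 and 0.382 in limma), and Elovl2 lay below the filter. Hacd3, a dehydratase of the elongation cycle, rose from 28.4 to 44.4 FPKM (adjusted p = 0.00131 in limma). Fa2h, which hydroxylates fatty acids next to the carboxyl end and was chosen after its values were seen, averaged 20.9 ± 15.2 and 46.3 ± 10.9 FPKM (SD over n = 3 a group) and stayed short of the threshold (adjusted p = 0.0943 in limma). The sphingomyelinases Smpd2 and Smpd4 did not pass either (adjusted p = 0.196 and 0.339 in limma). Tgm1, the transglutaminase that anchors the envelope to which omega-hydroxyceramides bind, rose from 14.9 ± 3.91 to 50.8 ± 5.04 FPKM (SD over n = 3 a group; log2 fold change 1.73, adjusted p = 0.000475 in limma). Of the remaining lipoxygenases, Alox5, which starts leukotriene synthesis, fell from 12.5 to 1.95 FPKM and Alox8 rose from 0.663 to 2.74 FPKM (adjusted p = 9.74e-05 and 0.00405 in limma), while Alox15 lay below the filter. Alox8 passed the filter only through the knockouts.

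**Figure D5:**
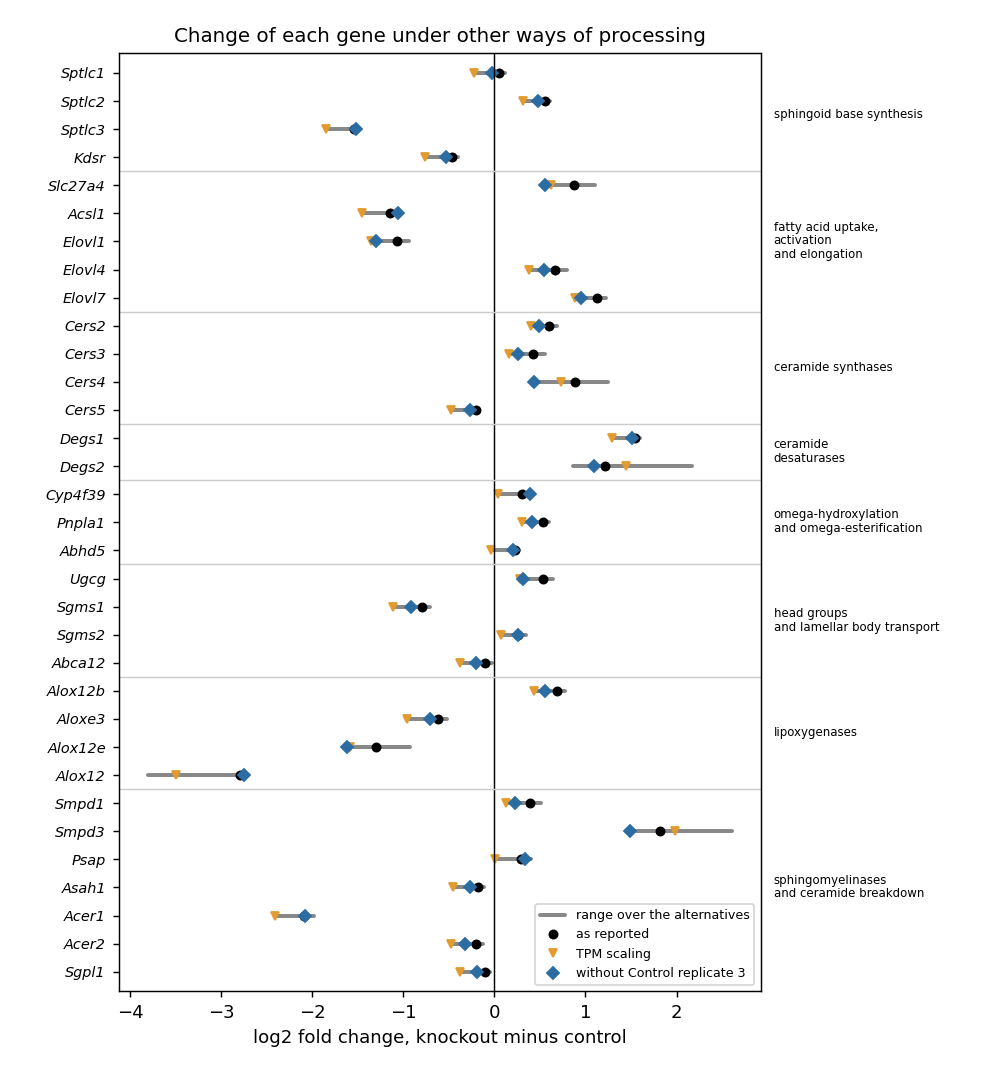
Log2 fold change of each of the 33 genes as reported (black), under TPM scaling (orange) and without Control replicate 3 (blue), with a grey line over the range of all alternatives. The lines of Alox12, Acer1, Sptlc3, Degs1 and Smpd3 stay far from 0, and those of Sptlc1 and Abhd5 cross it.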

How the data were processed

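The authors deposited 1 table of FPKM values with 1 column per sample. HISAT2 2.0.5, featureCounts 1.5.0-p3 and GRCm38 are named per the submitters' processing notes. Which annotation release, strand setting and FPKM formula were used is not given here. Per the labels' protocols, 0.4 ug of RNA went into each library. Groups and replicate numbers came from the titles.

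GENCODE M21 (GRCm38) matched 54495 of 54532 gene IDs, and 27 names turned into dates were restored by ID. FPKM multiplied by exon length came out as whole reads, within 0.1 reads, in 97.0% to 97.3% of values, against 20.0% by chance. The 10 most abundant genes made up 12.6% to 16.0% of control FPKM and 18.6% to 22.2% of knockout FPKM, and such genes can push the FPKM of all others down or up.

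limma 3.58.1 (R 4.3.3) with a trend was run on log2(FPKM + 1), two-sided, for genes averaging 1 FPKM or more, with Benjamini-Hochberg adjustment over all of them and a threshold of 0.05. This scale understates the change of low genes. The test was tested on simulated data. The members and gene lists were chosen with earlier results of these data known. The named genes were all 33 members, Spry1, and of the other pathway genes the 8 with the lowest p past the threshold and the members of the same enzyme families. Alternatives were a pseudocount of 0.1, no filter or a mean of 5 FPKM, median-ratio, TPM and recovered-read scaling, limma-voom with TMM on recovered reads, array weights, a replicate block, protein-coding genes only, a fold of at least 2, and leaving out samples. Figures were drawn with matplotlib 3.10.9.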

Additional observations from a re-analysis of the deposited data

How the results depend on the processing

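Of the 21 called genes of the set, 14 (6 higher, 8 lower) kept their call in all of the up to 17 alternatives that could be run for them, the fold threshold aside: Sptlc2, Sptlc3, Kdsr, Acsl1, Elovl1, Elovl7, Degs1, Degs2, Sgms1, Alox12b, Aloxe3, Alox12, Smpd3 and Acer1. Degs2, Smpd3, Aloxe3, Sgms2 and Acer2 lay below the filter of 5 FPKM. Another 7 lost it in at least 1 alternative, and 10 of the 12 uncalled genes gained one.

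The median log2 fold change of all genes moved by -0.28 under TPM scaling and by -0.11 when scaled to recovered reads. Under TPM scaling 7 genes of the set were higher and 14 lower, and 2248 and 5200 of the 14966 genes then tested. Scaled to recovered reads, 2876 of the 12539 genes then tested were higher and 3736 lower, and 5 other pathway genes were higher. With a mean of at least 5 FPKM, 1700 of the 7594 genes then tested were lower. With a fold of at least 2, 4 genes of the set were higher, 1024 of all genes were higher and 1010 lower, and 4 and 5 of the other pathway genes. Leaving out 1 sample gave 9 to 13 higher and 8 to 13 lower genes of the set, 3112 to 3977 higher and 2424 to 3313 lower of all genes, and 4 to 8 higher and 11 to 19 lower of the other pathway genes. With both Control replicate 3 and Spry1_KO replicate 2 left out, the set had 10 genes higher and 13 lower. In that fit 3623 of 12621 genes tested were higher and 3084 lower, and 5 of the other pathway genes were higher and 17 lower.

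Changes of sign were limited to genes that did not pass, apart from Abhd5 (-0.039 under TPM scaling). Sptlc1 was -0.22 under TPM scaling, -0.076 scaled to recovered reads, -0.0061 with array weights, -0.02 without Control replicate 3, -0.02 without Spry1_KO replicate 2 and -0.10 without both. Elovl5 was -0.23 under TPM scaling, -0.083 scaled to recovered reads, -0.0011 in limma-voom, -0.23 with array weights, -0.26 without Control replicate 3, -0.06 without Spry1_KO replicate 3 and -0.18 with Control replicate 3 and Spry1_KO replicate 2 left out. Elovl6 was -0.00066 without Control replicate 3 and -0.082 without both, and Smpd4 -0.10 under TPM scaling. Leaving out 1 sample in turn gave values up to 0.11 for Sptlc1, 0.20 for Elovl5 and 0.56 for Elovl6. The causes were not tested.

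Samples of the same number did not deviate together (correlations of -0.10, -0.11 and -0.12), and no sample correlated best with its own number. With the replicate number as a block, 10 genes of the set were higher and 8 lower, and 3216 and 2618 of all genes. Few reads limit the precision of Degs2 (18 to 49 in the controls), of Alox12 in the knockouts (58 to 87) and of Smpd3 in Control replicate 3 (42).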

Other observations

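Promoter windows of 250 bases were available for 30 of the 33 genes. GGGCGG, searched on both strands, was present for 9 of 11 risen genes, 6 of 8 fallen genes and 7 of 11 genes that did not pass, where 32.7% of all 32851 windows hold it. CCAAT was present for 3, 4 and 3 of these genes (33.8% of all windows). CACGTG, the E-box, was present for Cers2 and Degs1 among the risen genes, for none of the fallen and for Sgms2 among the rest (6.02% of all windows). TATAAA was present for none of the 30 genes (12.4% of all windows), and TGANTCA, the AP-1 site, for Sgms1, Sgms2 and Psap (6.75%). AACNGGTT, a letter pattern of Grainyhead-like factors, was present for Sgms1 (1.79%). Both strands were searched for every pattern, and some genes have several windows, so a count of genes is not on the same footing as a share of windows.

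Exons shared with a gene on the opposite strand made up 16.0% of the exon length of Abhd5 (A730085K08Rik, at 0.746 FPKM in the controls and 1.63 FPKM in the knockouts), 14.1% of that of Acer1 (AC073683.1, at 0.109 FPKM in the controls and listed at 0 in the knockouts) and 4.72% of that of Smpd3 (Prmt7, at 5.74 and 6.56 FPKM). No gene of the set shared exon bases with a gene on its own strand.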
